A study of Mus musculus with 5 samples.

Results

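The 9 genes described here stand for the choices a helper T cell can make: *Tbx21*, *Ifng*, *Eomes*, *Rora*, *Bcl6*, *Prdm1*, *Stat4*, *Stat6* and *Il12rb2*. They were taken by symbol, and 9 of 9 were found among the 19726 symbols listed for each library. The study sequenced RNA of CD4+ T cells, the lymphocytes that carry the CD4 co-receptor, from MC38 tumor (2 libraries, replicates 2 and 3) and from spleen (3 libraries, replicates 1, 2 and 3). MC38 is a colon carcinoma cell line of the mouse that grows as a transplanted tumor. All libraries came from wild-type mice of strain C57/Bl6j aged 7 weeks, with RNA of 300000 cells per extraction. No other treatment is named. How the cells were isolated, and whether each replicate is a mouse of its own, is not said in the labels. The p-values therefore describe variation among these 5 libraries, possibly only technical variation. They come from limma, which draws the variance of a gene mostly from that of all genes tested. The prior held 44.1 degrees of freedom, against 3 from the gene itself. An SE or p-value hence says little of a gene's own spread. Values are TPM, a transcript abundance per length, scaled to a fixed total, so levels of different genes can be set side by side.

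A naive CD4+ T cell takes on a helper fate under the cytokines it meets. Interleukin-12 signals through its receptor chain IL-12Rβ2 and the factor STAT4 towards the Th1 fate, whose master regulator T-bet (*Tbx21*) drives interferon gamma (*Ifng*). Interleukin-4 signals through STAT6 towards Th2, and RORα (*Rora*) is a nuclear receptor of Th17 cells. BCL6 directs follicular helper cells, and BLIMP-1 (*Prdm1*) is its antagonist. Several of these genes also work outside T cells: STAT6, BCL6 and BLIMP-1 are used by myeloid and B-lineage cells, and T-bet, EOMES and interferon gamma by natural killer cells.

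Per library, the sum over listed genes was 569309 and 596116 TPM in tumor and 268987 to 359532 TPM in spleen. The files give no read depth. All 13 T cell identity markers were above the 95th percentile of 1134 olfactory receptor genes in every spleen library, and 11 of 13 in both tumor libraries. That percentile, used here as the background level of genes not known to act in T cells, was 7.59 and 10.7 TPM in tumor and 10.6 to 16.2 TPM in spleen. The summed level of the T cell identity markers was 265 to 344 TPM in tumor and 1085 to 1432 TPM in spleen, with *Cd2* highest in tumor and *Cd3g* in spleen. All 16 macrophage and monocyte markers were above the background level in both tumor libraries and none in any spleen library, with sums of 4893 to 5330 TPM in tumor and 18.3 to 21.3 TPM in spleen. No marker of that list was at 0 in any library, and its highest was *Lyz2* at 1233 TPM in tumor and *Ms4a7* at 5.09 TPM in spleen. The libraries labelled as CD4+ T cells of tumor thus held abundant myeloid transcripts, and this applies to every comparison given here. In such bulk samples, fewer cells of a type and less RNA per cell cannot be told apart.

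The repressor genes *Bcl6* and *Prdm1* rose in tumor, where their mean TPM was 9.98 and 15.9 times that in spleen. *Il12rb2*, *Rora* and *Stat6* rose as well, with means 2.96, 2.39 and 1.98 times those in spleen. *Ifng*, *Eomes* and *Stat4* fell, and the values of *Ifng* and *Eomes* were below the background level in all libraries. By limma, with calls made at an adjusted p below 0.05, 5 of the 9 genes rose, 3 fell and 1, *Tbx21*, was not called. Of all 12979 genes tested, 40.9% rose, 18.1% fell and 59.0% were called in either direction, so a call was common among all genes and the counts among the 9 are read against these shares. The balance of rises and falls depended on the scaling of the libraries: with equal totals 2 of the 9 genes rose and 4 fell, beside 2724 and 6662 of all genes. Scaled on T cell identity markers, 8 of the 9 rose and 0 fell, beside 12285 and 118 of all genes. The libraries of the tissues did not overlap for 8 of the 9 genes, against 70.4% of all genes tested. The median log2 change of the 9 was 0.95, and that of all genes 0.23. All 9 passed the filter on low values, a mean of at least 1 TPM, and all 9 had a mean of at least 1 TPM in each tissue as well.

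**Figure D1:**
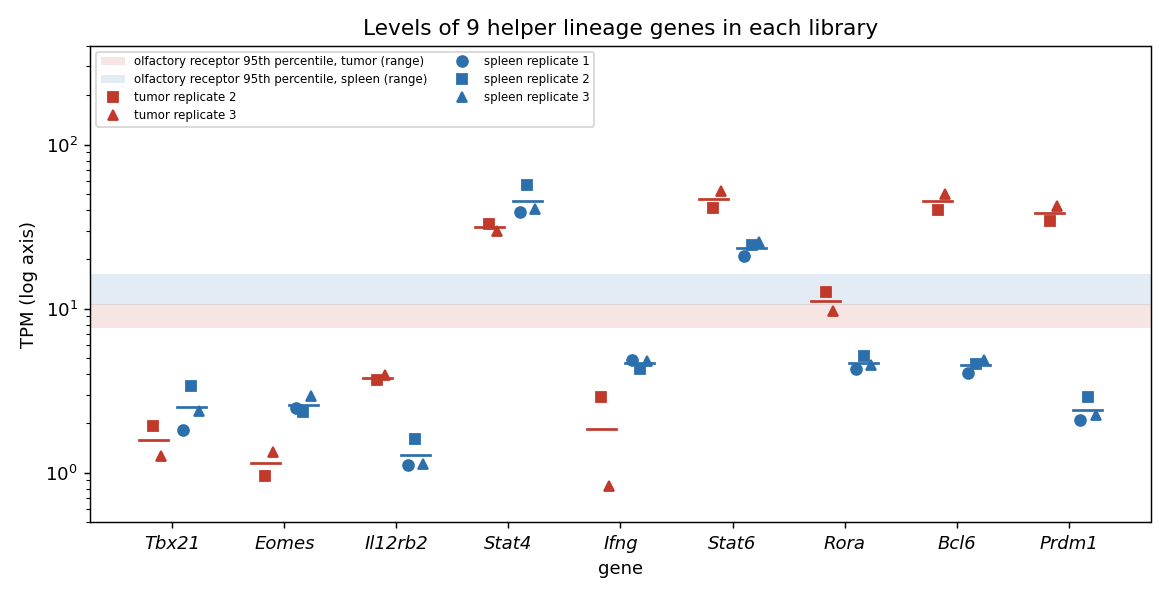
TPM on a log axis of the 9 genes in each library (red, tumor replicates 2 and 3; blue, spleen replicates 1 to 3; short lines, means), with shaded bands for the range of the olfactory receptor 95th percentile in each tissue. *Bcl6* and *Prdm1* lie above the bands in tumor and below them in spleen, *Stat4* and *Stat6* lie above them in all 5 libraries, and *Tbx21*, *Eomes*, *Il12rb2* and *Ifng* lie below them throughout.

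Only *Stat4* and *Stat6* exceeded the background level in all 5 libraries, 2 of the 9 genes in each spleen library. In tumor, *Bcl6* and *Prdm1* joined them in both libraries, and *Rora* in replicate 2 alone, so that 5 genes were above it in tumor replicate 2 and 4 in replicate 3. Of all listed symbols 36.0% and 32.1% were above the level of their library in tumor replicates 2 and 3, and 14.2% to 26.2% in spleen, so higher counts in tumor were not particular to these genes. A call on a gene below this level rests on values that olfactory receptor genes reach too. Whether the level depends on transcript length was not tested. The median longest transcript of the olfactory receptor genes was 2929 bases in the GENCODE annotation of GRCm38, against 3525 bases for the 9 genes. Those of *Ifng* (1208 bases) and *Tbx21* (2488 bases) were shorter than that of the olfactory receptor genes.

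The order of the levels differed between the tissues. In tumor it ran *Stat6*, *Bcl6*, *Prdm1*, *Stat4*, *Rora*, *Il12rb2*, *Ifng*, *Tbx21*, *Eomes* by mean TPM. There *Stat6*, *Bcl6* and *Prdm1* overlapped as neighbours, as did *Ifng*, *Tbx21* and *Eomes*, while the steps from *Prdm1* to *Stat4*, *Stat4* to *Rora*, *Rora* to *Il12rb2* and *Il12rb2* to *Ifng* were free of overlap. In spleen the order was *Stat4*, *Stat6*, *Rora*, *Ifng*, *Bcl6*, *Eomes*, *Tbx21*, *Prdm1*, *Il12rb2*. *Rora*, *Ifng* and *Bcl6* overlapped as neighbours there, and so did *Eomes*, *Tbx21* and *Prdm1*. *Stat4* and *Stat6* together made up 42.8% and 43.5% of the summed TPM of the 9 genes in tumor and 74.2% to 77.1% in spleen. *Bcl6* and *Prdm1* together made up 43.6% and 48.3% in tumor and 7.10% to 8.01% in spleen.

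To show the start regions of the receptor, the cytokine and the pair of repressors whose levels differed most, the 250 bases before their RefSeq starts (GRCm38.p6) are printed 5′ to 3′ on the strand of the gene. *Bcl6* has a start at the edge of the gene and another inside it, 7569 bases on, and the *Prdm1* start lies 69753 bases inside the annotated gene. Capitals mark matches, on either strand, to the STAT-type GAS element TTCNNNGAA or the AP-1 site TGANTCA, N being any base.
Il12rb2, chr6:67376189-67376438, minus strand: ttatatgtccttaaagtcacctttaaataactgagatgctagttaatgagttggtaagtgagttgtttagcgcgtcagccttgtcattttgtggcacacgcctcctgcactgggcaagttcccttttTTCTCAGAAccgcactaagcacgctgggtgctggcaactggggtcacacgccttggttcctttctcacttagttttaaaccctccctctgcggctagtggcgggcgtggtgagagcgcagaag
Ifng, chr10:118440796-118441045, plus strand: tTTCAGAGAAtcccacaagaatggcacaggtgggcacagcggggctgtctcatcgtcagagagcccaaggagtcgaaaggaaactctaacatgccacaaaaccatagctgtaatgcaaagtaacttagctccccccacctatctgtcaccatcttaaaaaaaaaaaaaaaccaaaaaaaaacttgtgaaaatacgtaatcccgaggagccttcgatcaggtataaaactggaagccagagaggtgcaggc
Bcl6, start at the edge of the gene, chr16:23988853-23989102, minus strand: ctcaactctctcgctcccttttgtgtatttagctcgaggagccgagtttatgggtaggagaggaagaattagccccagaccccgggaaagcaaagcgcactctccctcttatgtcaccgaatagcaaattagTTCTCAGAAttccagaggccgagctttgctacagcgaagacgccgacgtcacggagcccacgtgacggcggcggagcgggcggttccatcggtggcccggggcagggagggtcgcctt
Bcl6, start inside the gene, chr16:23981284-23981533, minus strand: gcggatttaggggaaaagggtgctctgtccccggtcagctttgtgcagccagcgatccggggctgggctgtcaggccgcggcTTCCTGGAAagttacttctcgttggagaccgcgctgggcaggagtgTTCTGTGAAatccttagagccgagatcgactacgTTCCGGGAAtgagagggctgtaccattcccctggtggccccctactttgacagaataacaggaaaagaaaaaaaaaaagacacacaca
Prdm1, chr10:44458749-44458998, minus strand: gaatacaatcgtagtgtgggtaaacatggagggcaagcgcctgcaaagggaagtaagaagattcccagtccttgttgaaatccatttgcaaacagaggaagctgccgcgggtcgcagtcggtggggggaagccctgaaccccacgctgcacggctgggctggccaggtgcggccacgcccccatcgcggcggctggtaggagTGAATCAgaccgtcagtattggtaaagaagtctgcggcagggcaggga

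All 9 genes had a window, 11 in total. The GAS element was matched in 4 of the 11 windows, those printed for *Il12rb2*, *Ifng* and *Bcl6*, and in 7.02% of all 32851 windows of the same length. The window inside *Bcl6* held 3 matches, a number reached or passed by 9 of the 32851 windows. None of the 11 windows overlaps an exon of its own gene in the annotation. The AP-1 site, matched before the *Prdm1* start, occurs in 6.75% of windows. Another 4 motifs were searched on both strands. The interferon-stimulated element, GAAA, any 2 bases and again GAAA (2.98% of windows), was matched before *Eomes* and before the inner start of *Stat4*, and the ROR half-site AGGTCA (4607 of the 32851 windows) before *Stat6* and the outer start of *Stat4*. The STAT6-type element, TTC, any 4 bases and GAA (5.85%), and the T-box half-site TCACACC (3.33%) had no match in the 11 windows. Genes that rose and the gene *Ifng*, which fell, both carried the GAS element, and a match of letters is no evidence of binding.

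*Tbx21* (chromosome 11, 97098071 to 97115331, GRCm38, as for all positions here) encodes T-bet, the T-box factor that defines Th1 cells. It had 1.93 and 1.26 TPM in tumor replicates 2 and 3, against 1.82, 3.37 and 2.38 TPM in spleen replicates 1, 2 and 3. The tissues overlapped: tumor replicate 2 lay above spleen replicate 1. The log2 change on the log2(TPM + 1) scale, which understates changes of low genes, was -0.43 ± 0.22 (SE; limma adjusted p = 0.0954), not a call. The fall was called with median ratios, equal totals or the upper quartile (-1.01 to -0.64, limma adjusted p = 0.00323 to 0.0304) and without spleen replicate 1 (limma adjusted p = 0.0374). Scaled on T cell identity markers the change was 1.03, in the opposite direction and called (limma adjusted p = 0.000596).

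*Eomes* (chromosome 9, 118478212 to 118486132) encodes eomesodermin, the related T-box factor of cytotoxic and natural killer cells. It had 0.96 and 1.34 TPM in tumor, against 2.48, 2.35 and 2.93 TPM in spleen replicates 1, 2 and 3. Every tumor library was below every spleen library. It fell by 0.74 ± 0.22 on the log2 scale (SE; limma adjusted p = 0.00317), but changed in the opposite direction, by 0.64, when scaled on T cell identity markers. Without tumor replicate 2 its adjusted p in limma was 0.0601. The ratio of *Tbx21* to *Eomes* within a library was 2.00 and 0.94 in tumor and 0.73, 1.44 and 0.81 in spleen, and overlapped.

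*Ifng* (chromosome 10, 118441046 to 118445892), the interferon gamma gene and the product by which Th1 cells activate macrophages, had 2.89 and 0.83 TPM in tumor, against 4.84, 4.31 and 4.77 TPM in spleen replicates 1, 2 and 3. The spleen values were close together, and the tumor libraries lay apart from each other and below them. It fell by 1.08 ± 0.23 on the log2 scale (SE; limma adjusted p = 8.7e-05), but changed by 0.45, in the opposite direction and without a call (limma adjusted p = 0.139), when scaled on T cell identity markers. Without tumor replicate 3 the call was lost (log2 change -0.54, limma adjusted p = 0.101).

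Markers of other lymphocytes known to use these Th1 genes were read in the same libraries. Of 8 natural killer cell markers 6 were tested: 2 rose (*Gzmb* and *Klrk1*), 2 fell (*Klrb1c* and *Prf1*) and 2 had no call. Of all tested genes 40.9% rose and 18.1% fell. The sum of the 8 markers was 203 to 304 TPM in tumor and 27.7 to 35.0 TPM in spleen. Most of the tumor sum was *Gzmb*, with a mean of 135 TPM, and *Klrk1*, with 108 TPM. The natural killer receptor gene *Ncr1* had 0.39 and 0.89 TPM in tumor and 0.43 to 0.57 TPM in spleen, near 0 in all libraries. The CD8 T cell markers *Cd8a* and *Cd8b1* summed to 4.92 and 5.48 TPM in tumor and 6.44 to 7.34 TPM in spleen. Their part in the levels of *Tbx21*, *Eomes* and *Ifng* was not tested.

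*Il12rb2* (chromosome 6, 67291318 to 67376188) encodes the inducible chain of the interleukin-12 receptor. It had 3.66 and 3.95 TPM in tumor, against 1.12, 1.60 and 1.14 TPM in spleen replicates 1, 2 and 3. Both tumor libraries were above all spleen libraries, though below the background level in each library. It rose by 1.08 ± 0.22 on the log2 scale (SE; limma adjusted p = 2.9e-05). With equal totals of the libraries the change was 0.44 and no longer a call (limma adjusted p = 0.0699).

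*Stat4* (chromosome 1, 51987148 to 52107189), the transducer of interleukin-12, was the highest of the 9 genes in each spleen library and the fourth in each tumor library. It had 32.8 and 30.0 TPM in tumor, against 38.9, 57.1 and 40.6 TPM in spleen replicates 1, 2 and 3. The tissues did not overlap, although spleen replicate 2 stood above its own group by more than the gap between the tissues. It fell by 0.50 ± 0.21 on the log2 scale (SE; limma adjusted p = 0.0399), and it changed by 1.59, upward, when scaled on T cell identity markers. The call held without spleen replicate 1 and was lost without any other single library, with limma adjusted p between 0.0691 and 0.244.

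*Stat6* (chromosome 10, 127642986 to 127660957), the transducer of interleukin-4 and interleukin-13 in T cells and macrophages, was the highest of the 9 genes in each tumor library. It had 41.3 and 52.0 TPM in tumor, against 20.9, 24.5 and 25.4 TPM in spleen replicates 1, 2 and 3, with no overlap. It rose by 0.95 ± 0.21 on the log2 scale (SE; limma adjusted p = 0.00012). The change was 0.04 with equal totals (limma adjusted p = 0.820) and 0.15 on the upper quartile (limma adjusted p = 0.280). Within each library the ratio of *Stat6* to *Stat4*, which no scaling alters, was 1.26 and 1.74 in tumor and 0.54, 0.43 and 0.63 in spleen replicates 1, 2 and 3. In tumor *Stat6* exceeded *Stat4* in both libraries, and in spleen *Stat4* exceeded *Stat6* in all 3. No test was run on these ratios.

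*Rora* (chromosome 9, 68653786 to 69388246) encodes RORα, a nuclear receptor of Th17 cells, regulatory T cells of tissues and innate lymphoid cells. It had 12.7 and 9.69 TPM in tumor, against 4.31, 5.14 and 4.55 TPM in spleen replicates 1, 2 and 3. The tumor libraries were above all spleen libraries, and only tumor replicate 2 was above its background level. It rose by 1.10 ± 0.21 on the log2 scale (SE; limma adjusted p = 1.2e-05). The change was 0.28 with equal totals (limma adjusted p = 0.154) and 0.38 on the upper quartile (limma adjusted p = 0.0753).

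*Bcl6* (chromosome 16, 23965052 to 23988852) encodes the zinc finger repressor of follicular helper cells and of germinal centre B cells. It had 39.8 and 50.3 TPM in tumor, against 4.06, 4.61 and 4.87 TPM in spleen replicates 1, 2 and 3. The lowest tumor library stood above the highest spleen library several times over, and only the tumor libraries were above the background level. The means were 45.1 ± 7.40 TPM in tumor (SD, n = 2) and 4.52 ± 0.41 TPM in spleen (SD, n = 3), and the rise was 3.06 ± 0.21 on the log2 scale (SE; limma adjusted p = 5.1e-18).

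*Prdm1* (chromosome 10, 44437177 to 44528501) encodes BLIMP-1, a repressor of effector and regulatory T cells, plasma cells and macrophages. It had 34.5 and 42.2 TPM in tumor, against 2.10, 2.90 and 2.24 TPM in spleen replicates 1, 2 and 3. No library of one tissue came near the other tissue, and the ratio of the means was the largest among the 9 genes. The means were 38.3 ± 5.44 TPM in tumor (SD, n = 2) and 2.42 ± 0.43 TPM in spleen (SD, n = 3), and the rise was 3.53 ± 0.21 on the log2 scale (SE; limma adjusted p = 2.5e-20). The antagonists *Bcl6* and *Prdm1* were thus high in the same libraries: the ratio of *Prdm1* to *Bcl6* was 0.87 and 0.84 in tumor and 0.52, 0.63 and 0.46 in spleen. *Bcl6* was the higher of the pair in all 5 libraries.

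Both rises were called under each of 16 alternatives, between 1.92 and 4.98 on the log2 scale for *Bcl6* and between 1.96 and 5.34 for *Prdm1*. The macrophage and monocyte markers, which moved the same way, changed by a median of 7.09 on the log2 scale, 16 of 16 rising. Relative to the mean log2 level of those markers in the same library, *Bcl6* differed by -3.79 between tumor and spleen and *Prdm1* by -3.32. Relative to the T cell identity markers they differed by 5.13 and 5.60. The size of these differences depended on the pseudocount, and most macrophage markers lay near 0 in spleen. Between pseudocounts of 0.1 and 10, *Bcl6* over macrophage markers was -4.73 and -2.50 and *Prdm1* -4.07 and -2.46. Over T cell identity markers *Bcl6* was 5.42 and 3.58 and *Prdm1* 6.07 and 3.62. B cell markers summed to 14.8 and 15.3 TPM in tumor and 16.2 to 17.8 TPM in spleen, with *Cd22* the highest in both. Plasma cell markers summed to 20.0 and 21.5 TPM in tumor and 25.9 to 37.6 TPM in spleen, where *Jchain* at 28.2 TPM made up most. Among these *Sdc1* rose, to 14.7 TPM in tumor, and *Jchain* fell. Dendritic cell markers summed to 106 and 157 TPM in tumor, most of it *Itgax*, and to 11.6 to 16.4 TPM in spleen, where *Siglech* was highest. Neutrophil markers summed to 79.4 and 80.7 TPM in tumor, led by *Csf3r*, and to 16.2 to 21.7 TPM in spleen, led by *Cxcr2*. Of 6 dendritic cell markers tested 3 rose and 0 fell, and of 5 neutrophil markers tested 3 rose and 1, *Cxcr2*, fell. Of all tested genes 40.9% rose and 18.1% fell. Other markers were low: *Flt3* of dendritic cells had 0.69 and 1.09 TPM in tumor and 0.64 to 0.74 TPM in spleen. The neutrophil marker *Ly6g* had 0.60 and 0.13 TPM in tumor and 0.23 to 0.44 TPM in spleen. The part of any of these cell types in the rise of *Bcl6* and *Prdm1* was not tested.

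**Figure D2:**
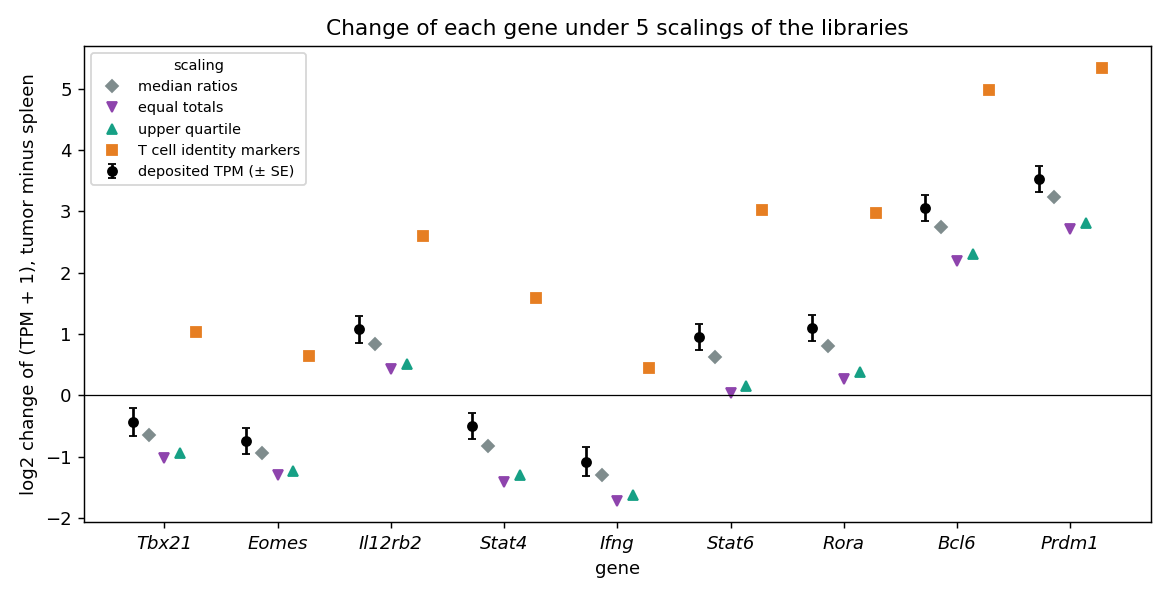
Change of each gene, tumor minus spleen, as log2 of (TPM + 1), on the deposited TPM (black, ± SE of limma's fit) and under 4 other scalings of the libraries. *Bcl6* and *Prdm1* stay above 2 under all 5 scalings, while *Tbx21*, *Eomes*, *Stat4* and *Ifng* are below 0 under 4 scalings and above 0 when scaled on T cell identity markers.

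The scalings moved all genes together. The median log2 change of all genes tested moved by -0.28 with median ratios, -0.77 with equal totals, -0.68 by upper quartile and 1.84 by T cell identity markers. A scaling moves each gene and this median alike apart from the pseudocount, so positions relative to the median describe the genes without the scaling and are no check of it. *Prdm1* lay 3.25 to 3.29 above it and *Bcl6* 2.74 to 2.90 above it on the log2 scale. *Rora* lay 0.82 to 0.89 above, *Stat6* 0.58 to 0.95 and *Il12rb2* 0.52 to 0.98. Below it were *Ifng*, with differences of -1.63 to -1.17, *Eomes* with -1.43 to -0.75, *Tbx21* with -1.05 to -0.47 and *Stat4* with -0.87 to -0.49.

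The rank of a gene among all symbols of its own library is free of scaling as well. *Bcl6* stood at the percentiles 88.6 and 89.97 in tumor and between 58.1 and 61.7 in spleen. *Prdm1* stood at 87.1 and 88.1 in tumor and between 46.3 and 52.8 in spleen. Both ranked in the upper part of the tumor libraries and near the middle of the spleen libraries. *Stat6* overlapped by rank, at 88.9 and 90.3 in tumor and 88.6 to 91.1 in spleen, although its TPM did not. *Stat4* stood at 86.5 and 84.0 in tumor and 95.3 to 96.4 in spleen. *Ifng* stood at 50.4 and 32.7 in tumor and 58.4 to 61.6 in spleen, *Eomes* at 36.8 and 38.9 in tumor and 49.3 to 53.0 in spleen. Thus *Stat4*, *Ifng* and *Eomes* ranked lower in tumor without overlap. *Rora* stood at 72.3 and 66.2 in tumor and 59.3 to 61.0 in spleen, *Il12rb2* at 53.4 and 53.2 in tumor and 35.4 to 44.9 in spleen. Both ranked higher in tumor without overlap. *Tbx21* overlapped, at 45.2 and 38.3 in tumor and 43.9 to 54.9 in spleen.

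**Figure D3:**
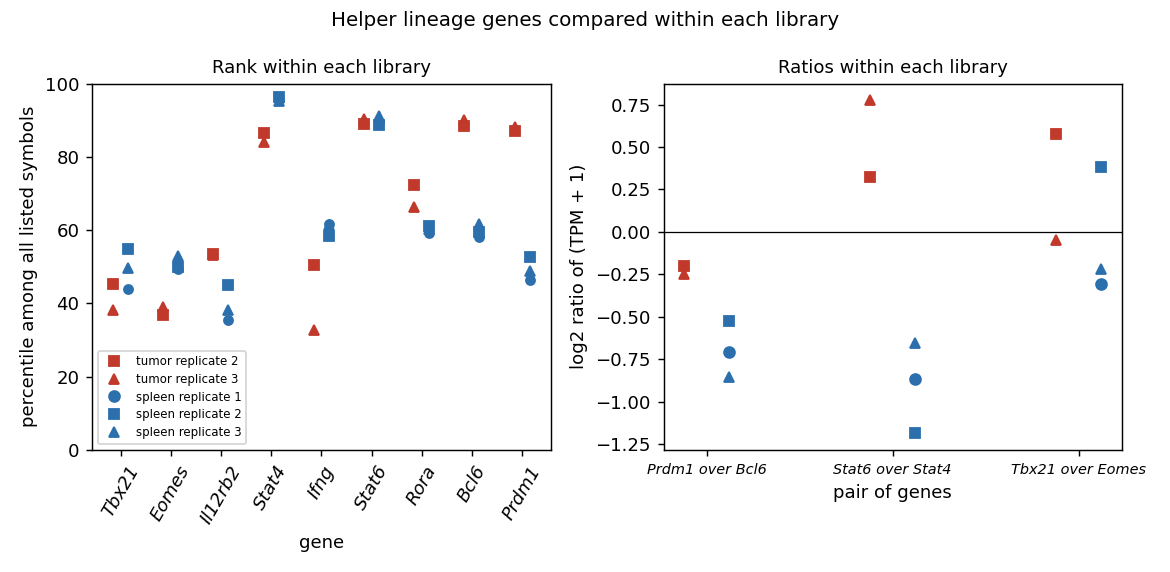
Left, percentile of each gene among all symbols listed for the same library; right, log2 ratio of (TPM + 1) of 3 pairs of genes in the same library (red, tumor; blue, spleen; symbols, replicates). *Stat6* and *Tbx21* overlap by rank, the ratios of *Prdm1* to *Bcl6* and of *Stat6* to *Stat4* do not overlap between the tissues, and that of *Tbx21* to *Eomes* does.

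Around the 9 genes, 69 partner genes in 5 lists were counted by limma calls. Counts on the deposited TPM are read against the 40.9% of all tested genes that rose and the 18.1% that fell. Counts under another scaling, in all 5 lists, are read against all 12979 tested genes in that scaling. These were 2724 rises and 6662 falls with equal totals. On T cell identity markers they were 12285 rises and 118 falls. Of 12 genes of the IL-12 and IL-18 axis 11 were tested: 6 rose, 2 fell and 3 had no call. Their median log2 change was 0.64, beside 0.23 over all genes. Ligand genes led the rises: *Il18*, an interferon gamma inducing cytokine of myeloid cells, had 95.2 and 79.6 TPM in tumor, against 0.52 to 1.74 TPM in spleen (log2 change 5.48). *Ebi3*, the shared subunit of interleukin-27 and interleukin-35, had 12.8 and 13.9 TPM in tumor, against 0.70 to 0.87 TPM in spleen. *Il27ra*, the interleukin-27 receptor gene, fell to 4.5997 and 3.78 TPM in tumor, against 30.4 to 46.3 TPM in spleen. With equal totals 5 genes of this list rose and 4 fell. On T cell identity markers 9 rose and 1, *Il27ra*, fell (log2 change -0.90). Macrophage markers and these ligand genes were high in the same libraries, and their link was not tested.

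Of 13 genes of the Th1 and interferon gamma axis 12 were tested: 9 rose and 3 fell, and the median log2 change was 1.96. *Tnf*, the tumor necrosis factor gene of macrophages and T cells, had 155 and 149 TPM in tumor, against 4.63 to 6.07 TPM in spleen. *Lta*, the lymphotoxin alpha gene of lymphocytes, fell to 0.74 and 0.85 TPM in tumor, against 3.47 to 4.61 TPM in spleen, all below the background level. On T cell identity markers 11 genes of this list rose and 0 fell, beside 12285 and 118 of all genes, and *Lta* had no call there. Of 14 genes of the Th2 and IL-4 axis 11 were tested: 5 rose, 3 fell and 3 had no call, and the median was 0.45. *Il13ra1*, a receptor chain that signals through STAT6 outside T cells, had 37.8 and 42.8 TPM in tumor, against 0.33 to 0.57 TPM in spleen. *Maf*, a factor gene of Th2 cells and macrophages, had 84.9 and 80.7 TPM in tumor, against 13.4 to 15.05 TPM in spleen. *Ccr4*, the homing receptor of Th2 and regulatory T cells, fell to 2.98 and 4.24 TPM in tumor, against 8.90 to 9.85 TPM in spleen. All values of *Ccr4* were below the background level. With equal totals 4 genes of this list rose and 6 fell, and on T cell identity markers 10 rose, *Ccr4* among them (log2 change 0.65), and 0 fell. The macrophage marker sum beside these lists was 4893 to 5330 TPM in tumor and 18.3 to 21.3 TPM in spleen.

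Of 15 genes of the Th17 and ROR axis 11 were tested: 4 rose, 4 fell and 3 had no call, and the median log2 change was 0.04. *Ahr*, the aryl hydrocarbon receptor gene, had 18.5 and 18.7 TPM in tumor, against 1.64 to 2.36 TPM in spleen. *Stat3*, the gene of the interleukin-6 transducer, had 144 and 157 TPM in tumor, against 34.0 to 46.3 TPM in spleen. *Il21*, a cytokine gene of Th17 and follicular cells, fell to 0.71 and 0.58 TPM in tumor, against 2.11 to 3.71 TPM in spleen. All values of *Il21* were below the background level. Without tumor replicate 2, 2 genes of this list rose and 2 fell. On T cell identity markers 10 genes rose and 0 fell, *Il21* having no call there, and with equal totals 2 rose and 6 fell. Of 15 genes of the follicular helper and Bcl6-Prdm1 axis 14 were tested: 6 rose, 7 fell and 1 had no call, and the median was -0.09. While *Bcl6* rose, *Cd40lg*, the helper ligand for B cells, fell to 0.25 and 0.86 TPM in tumor, against 18.7 to 25.05 TPM in spleen. *Btla*, an inhibitory receptor gene of lymphocytes, fell to 3.36 and 2.92 TPM in tumor, against 39.1 to 54.0 TPM in spleen. *Id2*, an inhibitor of E proteins, rose to 272 and 222 TPM in tumor, against 33.5 to 44.0 TPM in spleen. On T cell identity markers 8 genes of this list rose and 3 fell, *Cd40lg* and *Btla* among the falls (log2 change -2.46 and -1.57). All 13 T cell identity markers fell on the deposited TPM, with a median log2 change of -2.09, and their part in the falls of this list was not tested.

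**Figure D4:**
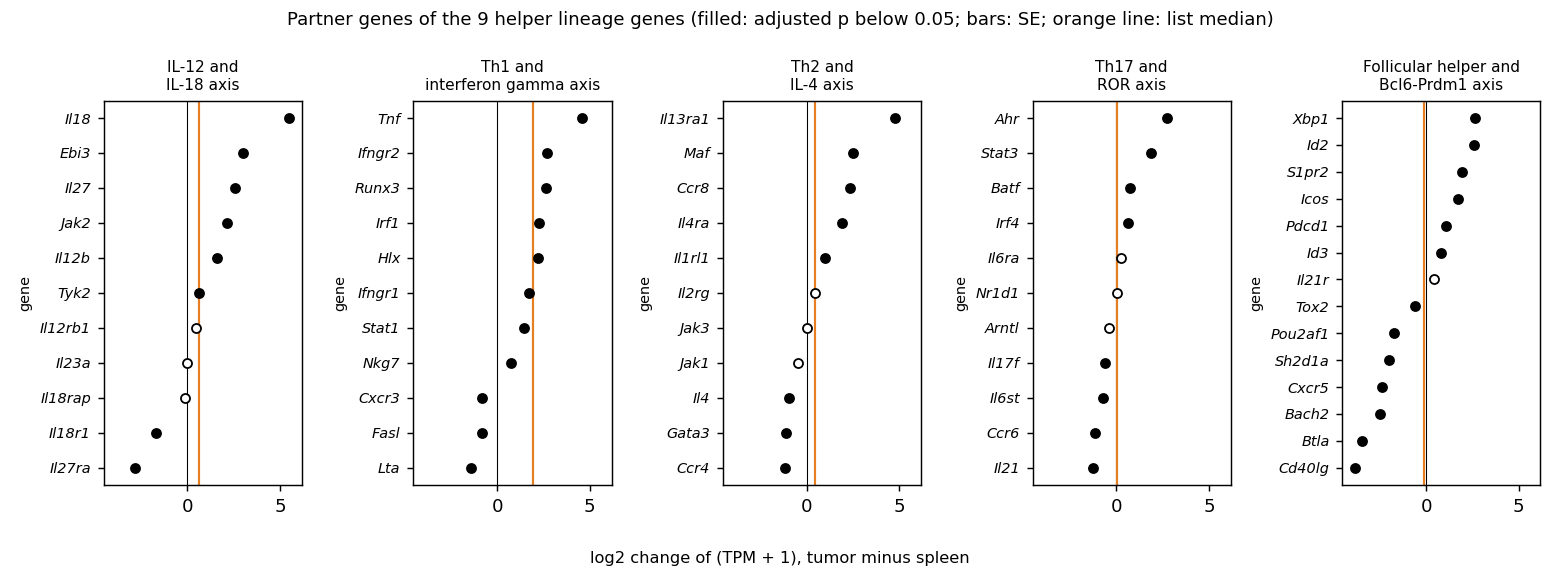
Change of tested partner genes, tumor minus spleen, as log2 of (TPM + 1) with its SE, in 5 lists (filled, limma adjusted p below 0.05; open, not called; orange, list median). Each list holds genes on both sides of 0, from *Il18* at 5.48 to *Cd40lg* at -3.84; the sides shift with the scaling.

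For the 5 genes that reached the background level, the genes closest in log2(TPM + 1) over the 5 libraries were looked up among 12958 other tested genes, by root mean square difference. As the libraries form a tumor and a spleen group, a small difference means similar levels in each tissue. Shared regulation or a shared cell source was not tested. Nearest to *Prdm1* were *Tcn2*, a vitamin B12 transport protein gene (0.10), and *Ncf1*, a subunit gene of the phagocyte oxidase (0.14). Nearest to *Bcl6* were *Bri3* (0.09) and *Dnase2a*, a lysosomal nuclease gene (0.14). *Stat6* was closest to *Ipo7*, a nuclear import receptor gene (0.07), and to *Tnfrsf14*, the herpesvirus entry mediator gene (0.07). *Rora* was closest to *Arl13b* (0.11) and to *Cd151*, a tetraspanin gene (0.11), and *Stat4* to *Fam208b* (0.08) and *Zcchc7* (0.09).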

How the data were processed

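Stranded, ribosomal RNA-depleted total RNA libraries were read as pairs of 75 bp, per the labels' protocols. The deposited values are 1 per gene symbol and library and are taken as TPM made by the authors, since they are not whole numbers and sum to below 1000000. Named without roles or versions are kallisto, DESeq2 and mm10, per the submitters' processing notes. From these values log2(TPM + 1) was tested with limma 3.58.1 in R 4.3.3 (tissue as the only term, mean-variance trend, mean of 1 TPM or more, two-sided, Benjamini-Hochberg over 12979 genes, calls at adjusted p below 0.05). On simulated data 45% of log2 changes of 1 and 93% of those of 2 were called, and 0.0313% of unchanged genes. The changed genes were drawn from genes of higher level in spleen, so low genes such as *Tbx21* were not covered. Medians, counts, percentiles and ratios are descriptions. Coordinates are from GENCODE M21 and promoter windows from RefSeq GRCm38.p6. Depth is not in the files, so no counting interval is given. The members and lists were chosen with earlier results of these data known. Named partner genes were, per list, the 2 called genes of smallest p in the direction with more calls, and 1 of the opposite direction; 1 such gene of the Th1 list is counted but not reported by name here or drawn. Of each marker list, the highest marker per tissue was named, and other markers after their values were seen. Mast cell markers summed to 2.23 to 2.74 TPM in tumor and 9.94 to 13.6 TPM in spleen (*Ms4a2* highest), and epithelial markers to 1.57 and 1.78 TPM in tumor and 2.23 to 2.76 TPM in spleen (*Epcam* highest). Alternatives were scalings, filters, pseudocounts, a stricter threshold, no trend, a block for the replicate number, and leaving out single libraries.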

Additional observations from a re-analysis of the deposited data

How the results depend on the processing

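Rises of *Bcl6* and *Prdm1* kept direction and call under all 16 alternatives each. Equal totals gave 2724 rises and 6662 falls among all genes, the upper quartile 3078 and 6366, T cell identity markers 12285 and 118; median ratios gave 3920 falls, a mean of at least 5 TPM 1456 and an adjusted p below 0.01 1552. Falls ranged from 1209 to 2623 with 1 library left out. Of the 9 genes, equal totals left 2 rises, the upper quartile 3 and T cell identity markers 8, with 0 falls in that last scaling; at a mean of at least 5 TPM only 5 of them were tested and 1 fell, and 1 to 4 fell with 1 library left out. *Tbx21* changed by -0.64 with median ratios, -1.01 on equal totals and -0.94 by upper quartile, each a call, as it was without spleen replicate 1 (limma adjusted p = 0.0374). On T cell identity markers *Tbx21*, *Eomes*, *Stat4* and *Ifng* changed by 1.03, 0.64, 1.59 and 0.45. Calls were lost with equal totals for *Il12rb2* (0.44), *Stat6* (0.043) and *Rora* (0.28), by upper quartile for *Stat6* (0.15) and *Rora* (0.38), and for *Stat4* with no filter and at 0.01 (-0.50 in both). With 1 tumor library left, that library has no spread of its own, and the variance comes from the spleen libraries and from all genes tested. Leaving out 1 library at a time, changes ranged from -0.61 to -0.24 for *Tbx21* and -0.87 to -0.61 for *Eomes*. They ranged from -0.60 to -0.33 for *Stat4* and -1.62 to -0.54 for *Ifng*. For the other members calls held.

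Replicate numbers 2 and 3 occur in both tissues, with no statement that they mark the same mouse. With the replicate block *Tbx21* was called (-0.58, limma adjusted p = 0.0156) and *Stat4* was not (-0.60, limma adjusted p = 0.0521), and 4877 genes rose and 2013 fell. As replicate number 1 occurs only in spleen, these changes equal those without spleen replicate 1, so the 2 alternatives are not independent. Deviations of same-numbered libraries from their group means correlated at 0.20 (number 2) and 0.07 (number 3) across genes. With 2 tumor libraries their deviations are mirror images, so these 2 values are not separate. Tumor replicate 3 and spleen replicate 1, of unlike number, reached 0.19, so the correlations cannot decide whether the numbers mark a mouse. Between pseudocounts of 0.1 and 10, the difference of the log2 ratio of *Prdm1* to *Bcl6* was 0.65 and 0.04, and it was 0.47 at 1. Against the olfactory receptor 99th percentile, 4 of the 9 genes in each tumor library and 1 in each spleen library were higher. The share of all symbols above that percentile was not taken, so these counts have no share to be read against. The number of libraries limits the precision, and depth is not in the files.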

Other observations

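A set of 9 other helper cytokine genes, picked after their values were seen, stayed below the background level. *Il2*, *Lta*, *Il4*, *Il5*, *Il13*, *Il17a*, *Il17f*, *Il21* and *Il22* reached at most 2.61 TPM in tumor and 5.27 TPM in spleen, and 0 of their values were above the olfactory receptor 95th percentile of the same library. Their summed level was 5.26 and 6.26 TPM in tumor and 14.6 to 16.8 TPM in spleen. In 5 of the 9 genes both tumor libraries were below all spleen libraries, and in 0 were they above. Among all tested genes 70.4% had no overlap in either direction. *Il2*, *Il5*, *Il13*, *Il17a* and *Il22* did not pass the filter on low values and lie outside that share. *Lta*, *Il4*, *Il17f* and *Il21* passed it, and each was lower in tumor without overlap. The summed T cell identity markers in tumor were 0.248 of those in spleen, and their part in the cytokine levels was not tested.

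*Gata3*, the master regulator of Th2 cells, was also picked after its values were seen. It had 9.001 and 8.22 TPM in tumor, against 19.8, 21.5 and 17.6 TPM in spleen replicates 1, 2 and 3, and fell by 1.10 on the log2 scale (limma adjusted p = 1.0e-05). Scaled on T cell identity markers it changed by 0.89 in the opposite direction (limma adjusted p = 0.000688).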
